A study of Homo sapiens with 4 samples.

Results

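The dual-specificity MAP kinase phosphatases DUSP1, DUSP2, DUSP4, DUSP5, DUSP6, DUSP7, DUSP8, DUSP9, DUSP10 and DUSP16 were followed in A549 cells, an epithelial human lung adenocarcinoma line, after exposure to embelin, a benzoquinone from the fruits of Embelia ribes. All non-control array probes whose gene name was a member, or whose RefSeq transcript belonged to a member, were taken, which gave 17 probes for the 10 genes among 50238 probes for 31379 gene or transcript names. DUSP8 had 3 probes, DUSP16 had 4, DUSP2 and DUSP10 had 2 each and the other genes had 1 each. Probes of the same gene are lettered by mean signal over the 4 arrays, probe a being the brightest, and they are not replicates of each other.

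MAP kinases are switched on when an upstream kinase phosphorylates a threonine and a tyrosine in the activation loop, and the dual-specificity phosphatases switch them off by removing both phosphates. DUSP1, DUSP2, DUSP4 and DUSP5 are nuclear enzymes made on stimulation, DUSP6, DUSP7 and DUSP9 act on ERK mainly in the cytoplasm, and DUSP8, DUSP10 and DUSP16 prefer the stress kinases JNK and p38. Many of these genes are transcribed in response to the kinases that their products inactivate, so that they form negative feedback loops.

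The study sought the signalling changes behind the effect of embelin on cancer cells at an early time, and the arrays were a step towards this. Control A549 cells, from ATCC, were labelled untreated, with no vehicle named, and the other cells received 15 µM embelin for 4 h. The medium of both groups had been changed 12 h earlier to MEM with 2% FBS. Total RNA of 2 control and 2 embelin samples was labelled with Cy3 and hybridised to 1 array per sample, all on 1 slide with the same scan time.

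All values are normalized log2 signals, the log2 of the processed intensity after scaling each array to a common 75th percentile, and a difference of 1 on this scale is a 2-fold change. Between 50.3% and 66.7% of the probes on an array were well above background by the scanner software, and in each group 1 array was near either end of that range: control replicate 1 had 66.7% and replicate 2 had 50.3%, while embelin replicate 1 had 51.2% and replicate 2 had 66.4%. On the slide, the arrays with the lower shares were at positions 1 (control replicate 2) and 2 (embelin replicate 1). Those with the higher shares were at positions 3 (embelin replicate 2) and 4 (control replicate 1). All 5 epithelial marker genes looked at had a probe well above background on all 4 arrays, against 1 of 4 leukocyte, 0 of 3 endothelial and 1 of 5 fibroblast marker genes, the last being COL1A1, for which 1 of its probes was called higher after embelin. The summed level of the fibroblast list was 7.64 and 8.56 in the controls and 9.71 and 9.06 after embelin on the log2 scale. This sum includes probes that were not kept and were bright on 1 array only. A COL1A2 probe read 8.30 in embelin replicate 1 and 1.70 in replicate 2. The LUM probe read 7.44 in control replicate 2 and 2.21 in replicate 1. The part of the fibroblast list in the results was not tested. The labels say only that the samples are replicates, so that p-values measure the spread between these samples, which may be technical. Because each array was scaled to a common 75th percentile, a change in the amount of all RNA per cell would not be seen. Each level is therefore relative to the other transcripts on the array.

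A probe was kept when the scanner software marked it as well above background on both arrays of the control group, of the embelin group, or of both. Of the 17 probes, 15 were kept, and they covered 9 of the 10 genes. DUSP7 and DUSP2 probe b were not kept. DUSP2 probe a passed through the embelin group, since it was well above background on 1 of 2 control arrays, and DUSP16 probe d passed through the control group, since it was well above background on 1 of 2 embelin arrays. The lowest signal so marked was 3.83 and 5.85 in control replicates 1 and 2, and 5.97 and 3.89 in embelin replicates 1 and 2. Probe d was thus marked at 5.33 in control replicate 1 and not at 5.61 in embelin replicate 1. For dim probes the mark depends on the array as well as on the level. A probe was called when its limma p, adjusted after Benjamini and Hochberg across the 26145 fitted probes, was below 0.05.

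After embelin 3 of the 15 kept member probes were called higher, where 0.83% of all kept probes were called higher. They stood for DUSP5 and DUSP8, and hence for 2 of 9 genes kept, while 0.987% of the 17834 genes fitted had a probe called higher. No member probe was called lower, against 0.249% of all kept probes. At a 2-fold change with an unadjusted limma p below 0.05, 6 of the 15 were higher and 0 lower, against 4.58% and 3.78% of all kept probes. Both embelin values lay above both control values for 10 of the 15 and below them for 1, against 21.4% and 28.3% of all probes with 4 values. The 6 and the 10 include DUSP2 probe a, which passed the filter through the embelin group. With a filter on all 4 arrays, 5 member probes passed the 2-fold rule, as did 1525 of all 22752 probes, in either direction.

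**Figure D1:**
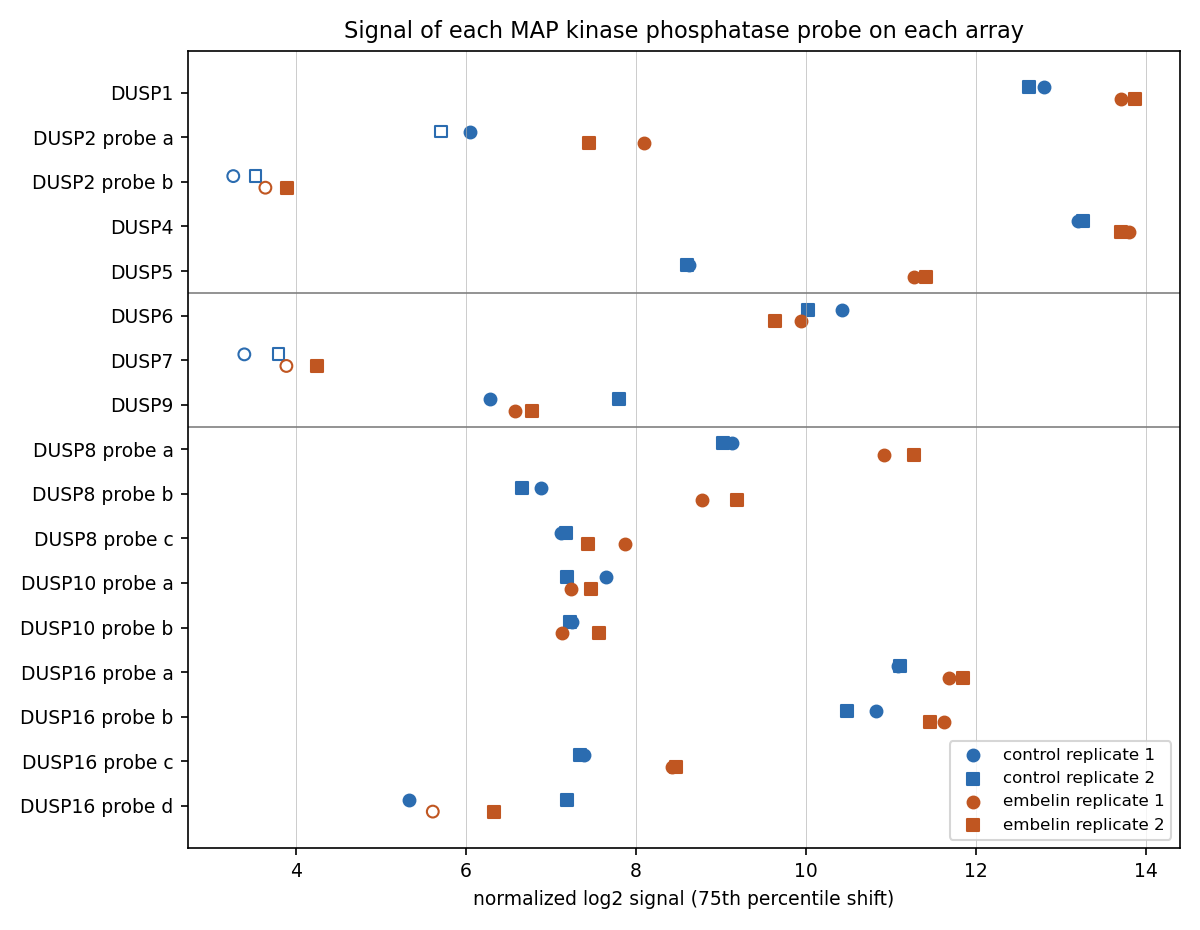
Normalized log2 signal (x axis) of the 17 MAP kinase phosphatase probes on each of the 4 arrays, with the nuclear enzymes at the top, the cytoplasmic ERK-selective enzymes in the middle and the JNK and p38 enzymes at the bottom. Filled points were well above background and open points were not; the embelin points of DUSP5 and of DUSP8 probes a and b lie clear of the control points, while those of DUSP10 overlap them.

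Among the nuclear enzymes, DUSP5 rose most after embelin, and the 3 other genes were higher without passing the adjusted threshold. DUSP5 encodes a phosphatase that inactivates ERK and holds it in the nucleus. Its level was 8.63 and 8.60 in the control replicates and 11.27 and 11.41 in the embelin replicates. Both embelin arrays were far above both controls, and the replicates of each group lay close together. The mean level went from 8.62 ± 0.02 (SD, n = 2) to 11.34 ± 0.10 (SD, n = 2), a log2 difference of 2.72 (SE 0.18, 95% interval 2.24 to 3.21) or 6.61-fold, with a limma adjusted p of 0.0279. The first 30 of the 60 bases of its probe, shown because the largest change among these genes was measured with it, were as follows.
DUSP5: tgggaaaagagttcttcagatcatagacca

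No run longer than 9 bases was shared by the DUSP5 probe and any of the probes for its pseudogene DUSP5P1 or for other members. Probes were compared with probes and not with whole transcripts, so that binding of the DUSP5P1 transcript to the DUSP5 probe was not tested. The 2 probes for DUSP5P1, which share 40 bases with each other, had log2 differences of 1.00 (limma adjusted p = 0.329) and 1.00 (limma adjusted p = 0.221).

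DUSP2, also known as PAC-1, is an inducible nuclear phosphatase best known from activated lymphocytes. Its probe a read 6.04 and 5.71 in the control replicates and 8.09 and 7.45 in the embelin replicates. Both embelin values were higher, and the value of control replicate 2 was not well above background. The log2 difference was 1.89 (SE 0.30, 95% interval 1.08 to 2.71), with a limma adjusted p of 0.0809. With normexp background correction the difference of this dim probe was 1.10. Probe b of DUSP2 read 3.27 and 3.53 in the controls and 3.64 and 3.90 after embelin, and was well above background on 1 array, embelin replicate 2, so that no fold is given for it.

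DUSP1, the first MAP kinase phosphatase described and an immediate early gene that acts on p38, JNK and ERK, was bright on all arrays. It read 12.80 and 12.62 in the control replicates and 13.70 and 13.86 in the embelin replicates. Neither embelin value came near the control values. The log2 difference of 1.07 (SE 0.19, 95% interval 0.56 to 1.59), a 2.10-fold change, had a limma adjusted p of 0.0961.

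DUSP4, a nuclear phosphatase for ERK and JNK, read 13.20 and 13.25 in the controls and 13.80 and 13.71 after embelin. The embelin values were again above the controls, by less than for the other nuclear genes. The log2 difference was 0.53 (SE 0.18, 95% interval 0.05 to 1.00), or 1.44-fold, with a limma adjusted p of 0.245.

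Neither of the measurable cytoplasmic ERK phosphatases was called. DUSP6, the main cytoplasmic phosphatase for ERK and a common readout of ERK activity, read 10.42 and 10.02 in the control replicates and 9.94 and 9.64 in the embelin replicates. It was the only kept member probe with both embelin values below both controls, and the gap between the nearest values was smaller than the distance between the replicates of either group. The log2 difference was -0.43 (SE 0.24, 95% interval -1.09 to 0.22), with a limma adjusted p of 0.438. It was -0.23 without control replicate 1, -0.63 without control replicate 2 and -0.28 without embelin replicate 2.

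DUSP9, an ERK phosphatase important in the placenta, read 6.29 and 7.80 in the control replicates and 6.58 and 6.78 in the embelin replicates. The embelin values lay between the controls. The log2 difference of -0.36 (SE 0.55, 95% interval -1.84 to 1.12; limma adjusted p = 0.797) became 0.39 without control replicate 2. DUSP7, which is close in sequence to DUSP6, read 3.40 in control replicate 1 and 3.80 in replicate 2, against 3.89 and 4.26 after embelin, and was well above background only on embelin replicate 2.

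**Figure D2:**
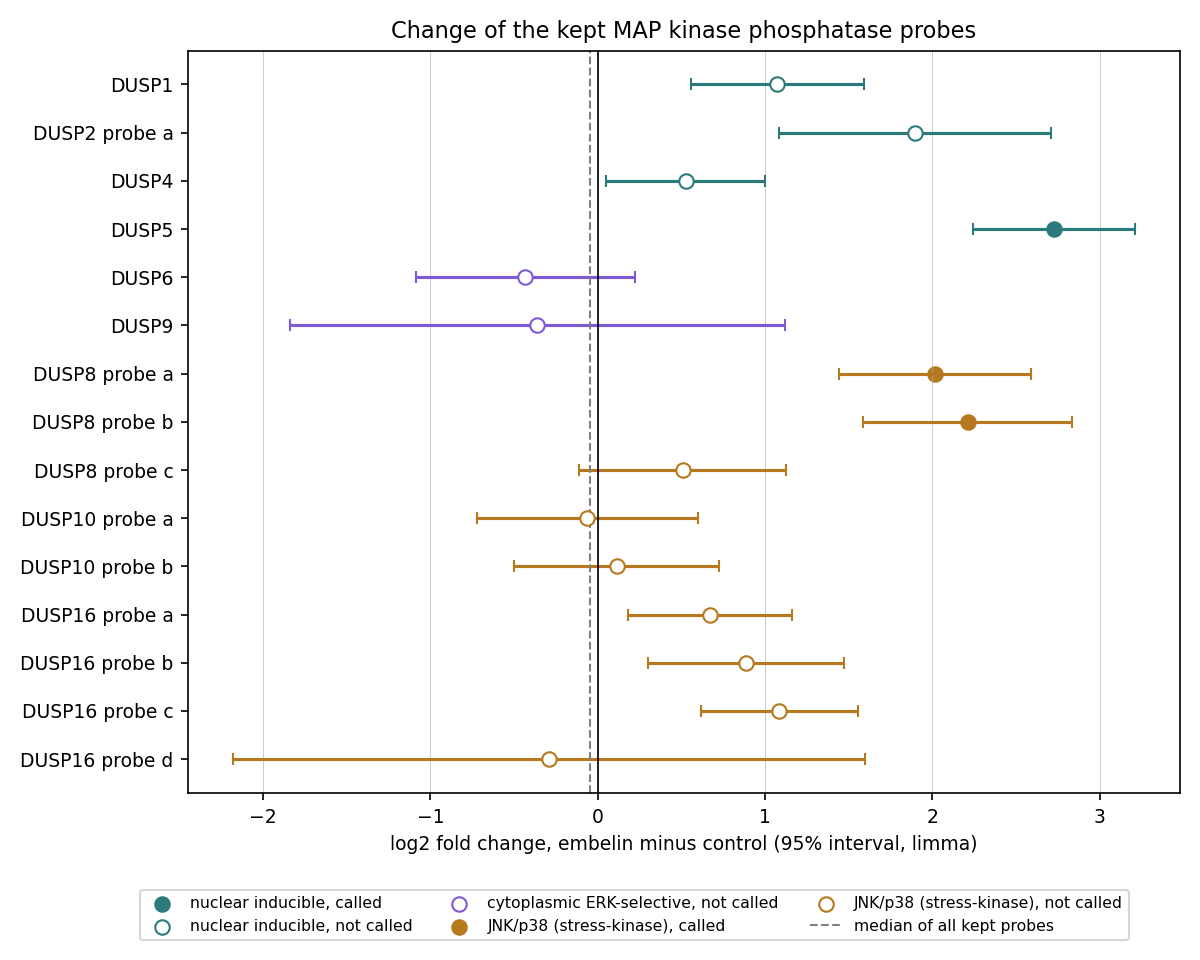
Log2 fold change, embelin minus control (x axis), of the 15 kept member probes with the 95% interval of the limma fit; filled points were called at an adjusted p below 0.05 and the dashed line is the median of all kept probes, -0.04. DUSP5 at 2.72 and DUSP8 probes a and b at 2.01 and 2.21 were called, the intervals of DUSP1, DUSP2 probe a, DUSP4 and DUSP16 probes a, b and c lie above 0, and those of the other probes include 0.

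Among the stress-kinase enzymes, DUSP8 rose on its probes a and b, DUSP16 was higher on 3 of 4 probes without being called, and DUSP10 differed little between the groups. DUSP8 encodes a phosphatase for JNK and p38 that is known mostly from brain and heart. Its probe a read 9.13 and 9.03 in the control replicates and 10.92 and 11.27 in the embelin replicates. Probe b read 6.88 and 6.67 in the controls and 8.78 and 9.18 after embelin. On both probes the embelin arrays were well clear of the controls.

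The log2 difference of probe a was 2.01 (SE 0.21, 95% interval 1.44 to 2.59), or 4.04-fold, with a limma adjusted p of 0.0483. That of probe b was 2.21 (SE 0.23, 95% interval 1.58 to 2.83), or 4.62-fold, with a limma adjusted p of 0.0479. These are not independent measurements, because 49 bases are common to the probes, from base 12 of probe a and base 1 of probe b. The first 30 bases of each are shown for this reason, with the shared bases in capitals.
DUSP8 probe a: cgggtggtcctCGAGCTCTATTTTTACTGT
DUSP8 probe b: CGAGCTCTATTTTTACTGTCTGGTATTTAA

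DUSP8 probe c, which was brighter than probe b in the controls (mean 7.15 against 6.77), gave a smaller difference. It read 7.12 and 7.17 in the control replicates and 7.87 and 7.44 in the embelin replicates, which lay above the controls but apart from each other. The log2 difference was 0.51 (SE 0.23, 95% interval -0.11 to 1.12), with a limma adjusted p of 0.354. This interval lay below those of probes a and b, and the difference between the probes was not tested. Probe c has no long run of bases in common with probes a and b, and its place in the transcript was not determined. It is shown whole because it is the DUSP8 sequence on which the rise was not called.
DUSP8 probe c: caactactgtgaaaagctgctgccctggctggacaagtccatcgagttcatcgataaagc

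DUSP16, also called MKP-7, is a phosphatase for JNK and p38 that shuttles between nucleus and cytoplasm. Its probe a read 11.08 and 11.11 in the controls and 11.68 and 11.85 after embelin. Probe b read 10.83 and 10.48 in the controls and 11.63 and 11.45 after embelin. Probe c read 7.38 and 7.35 in the controls and 8.42 and 8.48 after embelin. All 3 had both embelin values above both controls, with the replicates of probe c closest together.

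The log2 differences of DUSP16 were 0.67 for probe a (SE 0.18, 95% interval 0.18 to 1.16), 0.89 for probe b (SE 0.22, 95% interval 0.30 to 1.47) and 1.08 for probe c (SE 0.17, 95% interval 0.62 to 1.55). Their limma adjusted p were 0.182, 0.154 and 0.0812, so that none was called. Probe d read 5.33 and 7.19 in the controls and 5.61 and 6.33 after embelin, with a log2 difference of -0.29 (SE 0.70, limma adjusted p = 0.885). Its values were as far apart within a group as between groups. The probe is shown because it alone among the DUSP16 probes has no stop codon in any of its 3 reading frames, whereas probes a, b and c have a stop codon in every frame.
DUSP16 probe d: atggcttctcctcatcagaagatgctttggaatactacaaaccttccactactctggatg

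DUSP10, also called MKP-5, is a phosphatase for JNK and p38. Its probe a read 7.65 and 7.19 in the control replicates and 7.24 and 7.48 in the embelin replicates. Probe b read 7.25 and 7.23 in the controls and 7.14 and 7.57 after embelin. The groups overlapped on both probes. The log2 differences were -0.06 (95% interval -0.72 to 0.60; limma adjusted p = 0.935) and 0.11 (95% interval -0.50 to 0.73; limma adjusted p = 0.856), and these intervals allow log2 changes from -0.72 to 0.73.

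Set side by side, the kept probes of the nuclear enzymes had a median log2 difference of 1.48 over 4 probes, those of the cytoplasmic enzymes -0.40 over 2 and those of the stress-kinase enzymes 0.67 over 9, while the median of all kept probes was -0.04. The nuclear median includes DUSP2 probe a, which passed the filter through the embelin group. It was 1.07 over the probes well above background on all 4 arrays and 1.08 with normexp correction. Leaving out control replicate 1 took the cytoplasmic median to -0.67, and leaving out replicate 2 of the controls took it to -0.12. All 4 nuclear probes, DUSP2 probe a included, had both embelin values above both controls, as did 6 of the 9 stress-kinase probes and neither of the cytoplasmic probes, where 21.4% of all probes with 4 values did. The classes were not tested against each other, since they hold few genes and the probes of a gene are not independent. Called genes were found in both the nuclear class (DUSP5) and the stress-kinase class (DUSP8), and each of these classes also held a gene with a log2 difference of 0.53 or less on its brightest probe, DUSP4 and DUSP10.

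The calls of DUSP5 and DUSP8 depended on all 4 arrays being present. Without control replicate 1, control replicate 2, embelin replicate 1 or embelin replicate 2, the limma adjusted p of DUSP5 was 0.0692, 0.144, 0.198 and 0.102, respectively, and no probe of any gene was called, whereas its log2 difference stayed between 2.65 and 2.80. That of DUSP8 probe a stayed between 1.84 and 2.19, and that of probe b between 2.01 and 2.41.

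The promoters of the members were searched for motifs, and the part of any match in the differences between members was not tested. RefSeq promoter windows (GRCh38.p14, 250 bases before to 50 bases after an annotated start) were found for 8 of the 10 members, 10 windows in all, and none for DUSP4 and DUSP5. Both strands were searched for the cyclic AMP response element, TGACGTCA, to which CREB and ATF family factors bind, the AP-1 site TGANTCA, the E-box CACGTG, the ATF4 element TGATGNAA and the CArG box of serum response factor. The response element TGACGTCA was found in the windows of DUSP1 and DUSP8 and in 1.85% of all 35116 windows. DUSP8 held 2 copies, as did 21 windows in all (0.0598%, counting windows with 2 or more). The E-box was found in the windows of DUSP1 and DUSP2 and in 7.26% of all windows. AP-1 sites, ATF4 elements and CArG boxes were found in none of the 10 member windows, against 7.71%, 3.62% and 1.29% of all windows. No match in a member window overlapped another. A match is a description of the letters and not a measurement of binding.

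The stretches that hold the matches are shown from base -150 to base -51 relative to the annotated start, read 5′ to 3′ along the gene's strand, with the matches in capitals. DUSP8 lies at chr11:1572322-1572421 (minus strand), with its 2 response elements at bases -118 to -111 and -74 to -67. DUSP1 lies at chr5:172771246-172771345 (minus strand), with the response element at bases -125 to -118 and the E-box at -108 to -103. DUSP2 lies at chr2:96145491-96145590 (minus strand), with the E-box at bases -113 to -108.
DUSP8: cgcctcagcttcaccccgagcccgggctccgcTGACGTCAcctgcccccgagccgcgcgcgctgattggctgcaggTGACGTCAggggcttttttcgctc
DUSP1: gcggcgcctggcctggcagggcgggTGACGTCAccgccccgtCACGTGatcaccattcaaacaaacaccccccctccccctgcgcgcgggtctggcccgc
DUSP2: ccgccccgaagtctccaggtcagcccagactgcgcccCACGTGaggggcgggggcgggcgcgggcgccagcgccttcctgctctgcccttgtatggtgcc

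**Figure D3:**
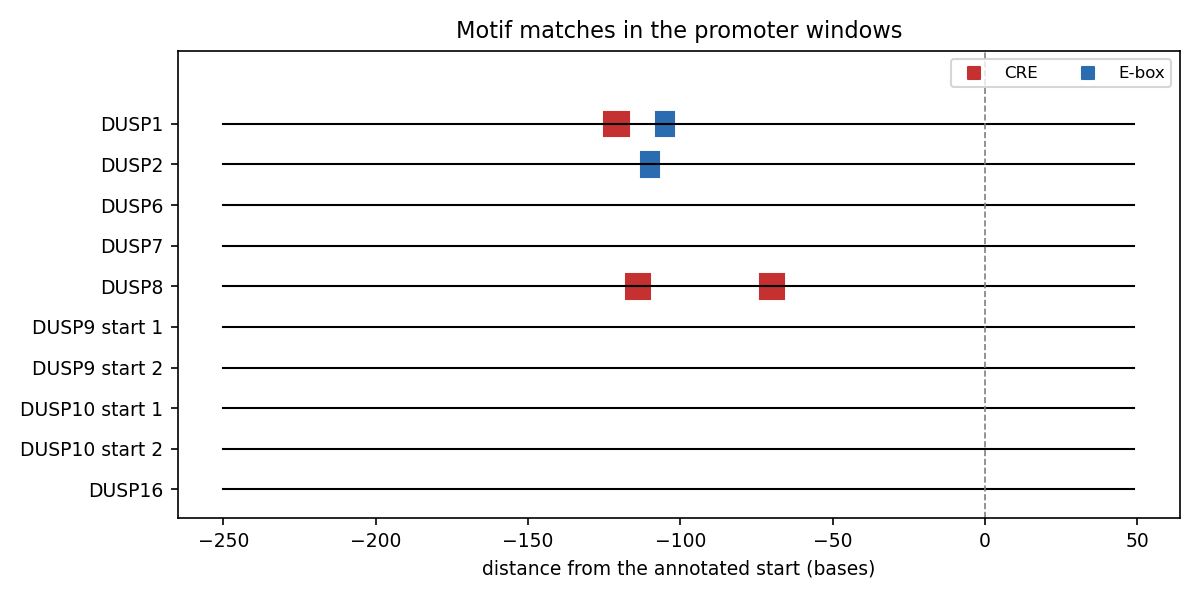
Positions of the motif matches (x axis, bases from the annotated start, dashed line) in the 10 RefSeq promoter windows of 8 members, with cyclic AMP response elements (CRE) in red and E-boxes in blue. DUSP8 has 2 response elements, DUSP1 has 1 with an E-box beside it, DUSP2 has an E-box, and the other windows have no match.

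The kinases that these phosphatases act on were read on the same arrays. Of 10 MAP kinase genes, 8 had a kept probe and 1 was called higher, where 0.987% of all genes fitted had a probe called higher. The called gene was MAPK7, which encodes ERK5. It read 10.04 and 10.14 in the controls and 12.21 and 12.28 after embelin, a log2 difference of 2.16 (SE 0.18) with a limma adjusted p of 0.032. For MAPK3, which encodes an ERK, the difference was -0.24. For the JNK genes they were 0.83 for MAPK8 and between -0.21 and 0.05 for the 3 probes of MAPK9. For the p38 genes they were -0.73 and 0.40 for MAPK14, -0.05 for MAPK11 and -0.52 for MAPK12. No probe of the genes named here other than MAPK7 was called, and MAPK10 and MAPK13 were not kept.

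Transcripts that are made in answer to MAP kinase activity were read beside the DUSP genes. Of 14 genes used as readouts of ERK activity, all had a kept probe, 2 were called higher and 0 lower, where 0.987% of all genes fitted had a probe called higher. The median log2 difference over their 23 probes was -0.18, and it was 0.05 without control replicate 1. The called genes were EGR1, a zinc finger immediate early factor, with a log2 difference of 3.51 (SE 0.24, limma adjusted p = 0.0285; well above background on 1 of 2 control arrays), and FOSL1, which encodes the AP-1 subunit FRA1, with 2.37 on its brighter probe (SE 0.18, limma adjusted p = 0.0306), its dimmer probe having passed the filter through the embelin group, with 1 of 2 control arrays well above background. At a 2-fold change with an unadjusted limma p below 0.05, 8 of the 23 probes were higher and 1 lower. Of all kept probes, 4.58% were higher and 3.78% lower by this rule.

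Of 14 AP-1, ATF and CREB family genes, 13 had a kept probe and 3 were called higher, against the same 0.987% of all genes, with a median log2 difference of 1.01 over 27 probes. Some of these probes passed the filter only through the embelin group, and the median was 0.95 over the probes well above background on all 4 arrays. The called genes were FOSL1, ATF3, a stress-induced repressor and activator of the ATF family, and FOS, the classic immediate early gene. The brighter probe of ATF3 had a difference of 5.71 (SE 0.20, limma adjusted p = 0.0255). Its other probe was dim in the controls, where neither array measured it well above background, and its embelin signal was at least 19.7-fold higher, taking for each control array the higher of its lowest signal among probes well above background and the probe's own signal. FOS had a difference of 2.43 (SE 0.21, limma adjusted p = 0.0361).

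The remaining lists gave no called gene in limma, where 1.31% of all genes fitted had a called probe. At a 2-fold change with an unadjusted limma p below 0.05 they gave 1 probe higher and 0 lower. The shares of all kept probes by this rule were 4.58% and 3.78%. The atypical and other dual-specificity phosphatases, most of which lack the domain that docks MAP kinases, had 16 of 18 genes kept, with a median log2 difference of 0.22 over 21 probes. Among them DUSP3, also called VHR, had differences of 0.63 and 1.45 on its 2 probes (limma adjusted p = 0.213 and 0.062), and is named after its values were seen. The tyrosine and serine/threonine phosphatases that also act on MAP kinases had 5 of 9 genes kept and a median of -0.01 over 9 probes, the MAP kinase kinases 6 of 7 and -0.44 over 8, and the MAP kinase-activated kinases 9 of 10 and -0.04 over 14. None of these lists was tested as a set, so that nothing is particular to them or to the MAP kinase phosphatases from these medians alone.

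**Figure D4:**
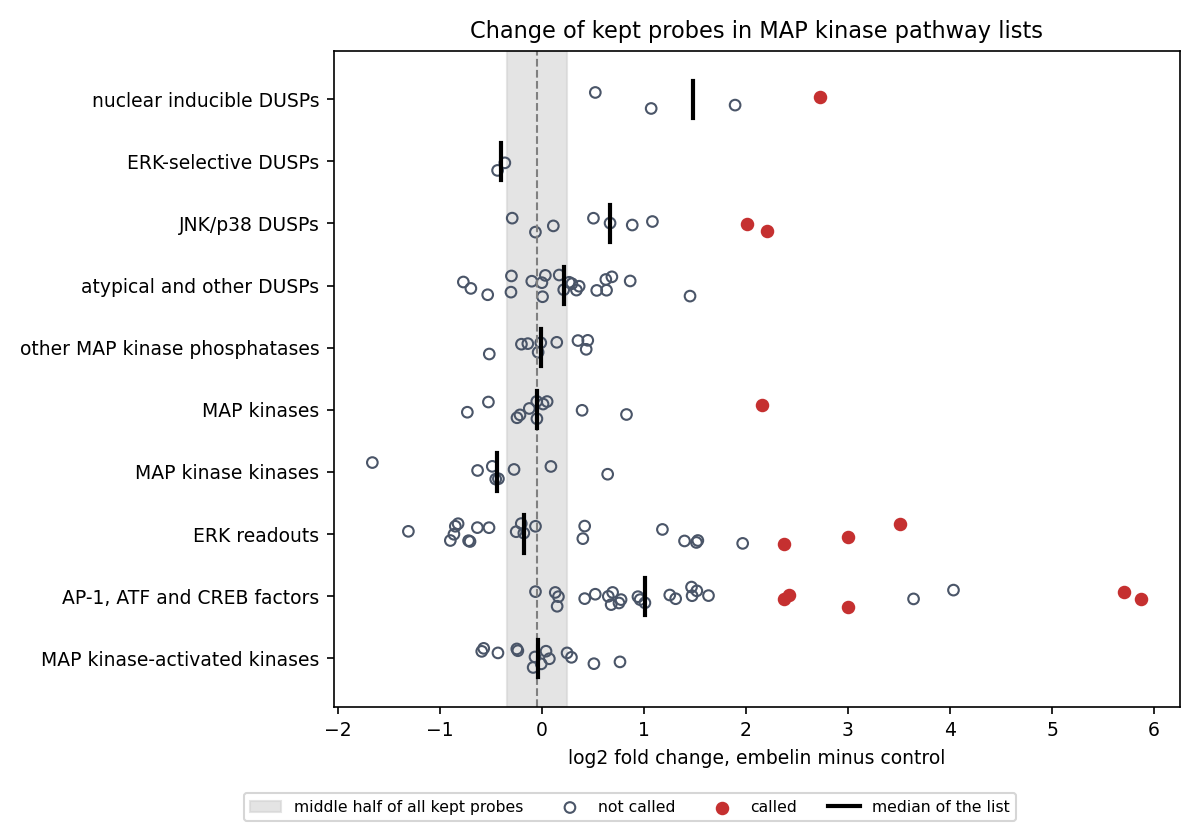
Log2 fold change, embelin minus control (x axis), of each kept probe in the 3 classes of MAP kinase phosphatases and in 7 lists of related genes; red points were called, black bars mark the list medians, the grey band runs from the 25th to the 75th percentile of all kept probes (-0.34 to 0.24) and the dashed line is their median. Called probes stand in the nuclear DUSPs, the JNK and p38 DUSPs, the MAP kinases, the ERK readouts and the AP-1, ATF and CREB factors, and FOSL1 is plotted in both of the last lists.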

How the data were processed

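A549 gene expression was measured on 1-colour Agilent arrays, 2 control and 2 embelin samples. The deposited intensity values were, per the file headers, written by Feature Extraction 10.7.3.1 after background subtraction and detrending within the array. The deposited probe table holds the authors' intensities per probe, also not normalized between arrays, and was used as an alternative. Columns without a sample numbered 0.

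Spots flagged as outliers were left out (no member probe had one), spots of a probe were averaged, arrays were scaled to equal 75th percentiles, the shift the methods name, values were floored at 1 and log2 was taken. Of the 17 member probes, 15 matched by RefSeq accession and 2 by name alone. Probes well above background on both arrays of a group were kept (26146, of which 26145 could be fitted). The groups were compared with limma 3.58.1 (lmFit, eBayes; prior of 2.31 degrees of freedom) in R 4.3.3, with Benjamini-Hochberg adjustment over all probes. The fit was tested on simulated data, where it called only the largest of the changes put in, so that a probe not called is not shown to be unchanged.

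Alternatives were normexp background correction (offset 50), quantile normalization, the deposited table, no filter, a filter on all 4 arrays, the replicate number as a block, a crossed block, position on the slide, trend and robust options of eBayes, the methods' t-test, 1 probe or the mean of probes per gene, and leaving out each array. The crossed block joined control replicate 1 with embelin replicate 2, and control replicate 2 with embelin replicate 1. Named genes were every member, every kept MAP kinase and the 3 largest called genes of each other list. A gene that this rule covers is not reported here by name, while counts and medians include it. The members and lists were chosen with earlier results of these data known. With 2 arrays per group, their number limits the precision, and an exact permutation test of 1 probe could not go below p = 0.333.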

Additional observations from a re-analysis of the deposited data

How the results depend on the processing

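Over all probes, 282 were called (217 higher, 65 lower), and among the members 3 probes of 2 genes. The direction of DUSP1, DUSP2 probe a, DUSP4, DUSP5, DUSP6, all 3 DUSP8 probes and DUSP16 probes a, b and c was the same under all alternatives that tested them, while the number called was not. Normexp correction called 819 probes (541 higher, 278 lower) and a filter on all 4 arrays 768 (476 higher, 292 lower), the latter with DUSP16 probe c added. The deposited table called 158 (132 higher, 26 lower) and 1 member probe of 1 gene, DUSP5. Quantile normalization called 194 (163 higher, 31 lower) and 2 member probes, DUSP5 and DUSP8 probe a, with DUSP8 probe b at an adjusted p of 0.0553. Trend and robust called 1296 (743 higher, 553 lower) and 5 member probes of 4 genes, DUSP1 and DUSP2 probe a being added. Without a filter, with the methods' t-test, with a crossed block, and with position on the slide, 0 probes and 0 members were called. The methods' t-test left 1385 probes past 2-fold and its unadjusted threshold. Leaving out each array gave 0 to 0 calls over all probes and among the members, with 1999 to 3201 probes past 2-fold and an unadjusted p below 0.05 in limma. The cause was not tested.

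Same-numbered arrays were compared for pairing (r = 0.2137 between the replicate differences of the 2 groups), but 2 pairs cannot show it, so that the replicate block is an alternative. With the replicate block 0 probes and 0 member probes of 0 genes were called, and the adjusted p of DUSP5 was 0.0769. The log2 difference of DUSP9 turned to 0.39 without control replicate 2 (range -1.12 to 0.39). Leaving out arrays moved DUSP10 probe a from -0.29 to 0.16, probe b from -0.10 to 0.33 and DUSP16 probe d from -1.22 to 0.64. Averaged over its probes, DUSP10 stood at 0.0259, against -0.06 for its brightest probe. The dim probes of DUSP7 and DUSP2 are limited by signal over background, and 2 arrays per group limit every call.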
